A study of Mus musculus with 9 samples.

Results

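The kinases that phosphorylate serine/arginine-rich (SR) splicing factors were examined at the RNA level in AML12 cells, a hepatocyte line from mouse liver, in which *Srrm2*, a scaffold protein of nuclear speckles, was targeted by short-hairpin RNAs (shRNAs). The members are the 4 Clk, 2 Srpk and 4 Dyrk genes of this class, chosen by name with earlier results of these data known, and were matched to the deposited tables by GENCODE M1 gene identifier. Of the 10 genes, 9 were among the 13259 genes present in both tables, and *Srpk2* is not analysed here. The study made 9 RNA-seq libraries, 3 from cells infected with lentivirus carrying a control hairpin, 3 with *Srrm2* shRNA 1 and 3 with *Srrm2* shRNA 2, and the labels give 5 days for the infections with *Srrm2* hairpins. All groups share the cell line and a medium with dexamethasone, and the labels do not say whether the 3 libraries of a group came from separate cultures. The values are the authors' pooled mean normalized counts, 1 per gene and table, averaged over the control libraries together with those of 1 hairpin, so no value of a single library or group enters and no replicate spread can be given.

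SR proteins carry long runs of alternating serine and arginine, and the phosphates on these serines decide where the proteins go. SRPK kinases act mostly in the cytoplasm and promote the import of SR proteins and their entry into speckles, the nuclear stores of splicing factors. CLK kinases act in the nucleus and add further phosphates that release SR proteins from the speckles to sites of splicing. DYRK kinases are a related group, of which Dyrk1a phosphorylates SR proteins and Dyrk3 dissolves speckles and other condensates when cells divide.

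CLK kinases are also known as LAMMER kinases, after a stretch of amino acids in the kinase domain. The sequences at the place of this stretch are shown to set the 4 genes of the family beside each other, and they were read from the GENCODE M1 transcript with the longest coding sequence of each gene and matched base by base to the genome (NCBIM37, the assembly of mm9). Capitals mark the 18 bases of the 6 codons, and 6 bases of coding sequence stand on either side.
Clk1: gaacatTTAGCAATGATGGAAAGGattctt
Clk2: gagcatCTAGCCATGATGGAAAGGatcctg
Clk3: gaacacTTGGTTATGATGGAGAAGattcta
Clk4: gagcacCTGGCAATGATGGAGCGGatctta

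In all 4 genes the window lies in exon 11 of 13. Its position is chr1:58469826-58469855 on the - strand for *Clk1*, chr3:88979329-88979358 on the + strand for *Clk2*, chr9:57599957-57599986 on the - strand for *Clk3* and chr11:51093875-51093904 on the + strand for *Clk4*. Of 21634 genes whose coding sequence was translated, 3 held the exact LAMMER letters (0.0139%), namely *Clk1*, *Clk2* and *Clk4*. The window of *Clk3* was placed by a looser pattern (histidine, leucine, any residue, methionine, methionine, glutamate), which 4 genes held, all of them Clk genes. Within the 18 capital bases *Clk1* and *Clk2* differed at 2, *Clk1* and *Clk3* at 5 and *Clk2* and *Clk3* at 6.

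DYRK kinases phosphorylate a tyrosine of their own activation loop, which lies in a tyrosine-x-tyrosine (YxY) stretch. Capitals mark the 9 bases of these 3 codons, with 9 coding bases on either side, to set the members beside each other.
Dyrk1a: cagaggataTACCAGTATattcagagt
Dyrk1b: cagcggatcTACCAGTATatccagagc
Dyrk2: caacgcgtcTACACGTACatccagtca
Dyrk3: cagaagcttTACACGTATatccagtcc

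The sequence of *Dyrk1a* begins at 94893191 and ends at 94894964 on the + strand of chromosome 16, across the intron between exons 7 and 8, and that of *Dyrk1b* begins at 28969541 and ends at 28970107 on the + strand of chromosome 7, across the intron between exons 6 and 7. *Dyrk2* (chr10:118297259-118297285) and *Dyrk3* (chr1:133025899-133025925) lie on the - strand, and in both the window is within exon 3 of 3. The capital bases of *Dyrk1a* and *Dyrk1b* did not differ (0 of 9), those of *Dyrk2* and *Dyrk3* differed at 1, and those of *Dyrk1a* and *Dyrk2* at 3. The pattern searched, with isoleucine and glutamine after the second tyrosine, was present in 33 of the 21634 genes (0.153%). Over the whole coding sequence, *Clk1* and *Clk4* were the most alike of the 13 pairs within a family, with 74.6% of aligned bases identical, and *Dyrk1a* and *Dyrk2* the least alike with 61.2%.

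The pooled means of the kinases were moderate to high among the genes of the tables. *Srpk1*, the kinase that loads SR proteins for import, had a mean normalized count of 852 in the table of shRNA 1 and of 918 in that of shRNA 2. *Clk1*, the founding member of the CLK family, had 812 and 867. These are the highest counts of the 9 genes and stood at percentiles 88.1 and 87.4 of the 13424 genes in the table of shRNA 1. *Clk3* followed with 472 and 494, *Dyrk1a* with 452 and 490, and *Clk4*, the closest relative of *Clk1*, with 444 and 457. *Clk2* had 298 and 310, and *Dyrk1b*, a relative of *Dyrk1a* known from muscle differentiation and cell quiescence, 216 and 248. *Dyrk3* had 153 and 157, and *Dyrk2*, a kinase of p53 and a scaffold of a ubiquitin ligase, 123 and 144. The order of the 9 genes by count was the same in both tables, which share their control libraries. Of the 9 kinases, 8 were above the median gene of either table, whose mean was 147 with shRNA 1 and 151 with shRNA 2. *Dyrk2* was below it, at percentiles 46.0 and 48.9, and *Dyrk3* just above it, at 50.9 and 50.8. In the table of shRNA 1, *Dyrk3* fell to percentile 48.2 among protein-coding genes. Among genes with a mean of 10 or more in both tables it fell to 42.5. Since the means carry no replicate spread, it cannot be said which neighbours in this order differ beyond error, least of all for *Clk3*, *Dyrk1a* and *Clk4*.

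**Figure D1:**
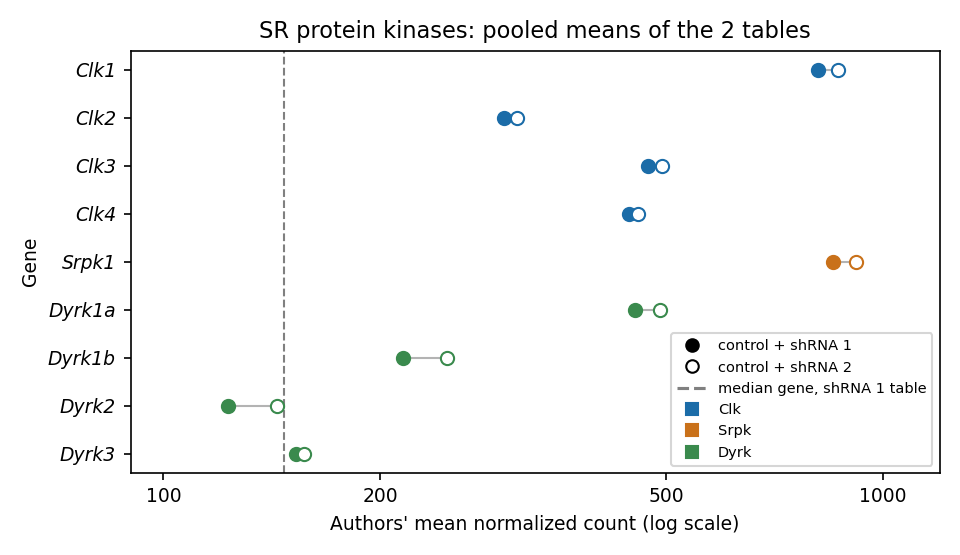
Authors' mean normalized count (log scale) of each listed kinase, with filled points for the table of control and shRNA 1 libraries and open points for that of control and shRNA 2 libraries, and a dashed line at the median gene of the table of shRNA 1. *Srpk1* and *Clk1* lie farthest right, and *Dyrk2* is left of the line in both tables.

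By family, the 4 Clk genes held 53.0% of the summed counts of the 9 kinases in the table of shRNA 1 and 52.1% in that of shRNA 2, the 4 Dyrk genes 24.7% and 25.4%, and *Srpk1* alone 22.3% and 22.5%. Together the 9 genes made up 0.0622% and 0.0639% of all normalized counts in the tables.

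To compare levels between genes, each mean was divided by the length of the longest coding transcript. On this scale of counts per kb, *Clk1* was highest with 386 in the table of shRNA 1 and 412 in that of shRNA 2. *Clk4* had 228 and 234 per kb, *Srpk1* 191 and 206, *Clk3* 189 and 198, and *Clk2* 138 and 144. The Dyrk genes were all lower than the Clk genes by this length, but not by merged exons, with 85.0 and 97.8 per kb for *Dyrk1b*, 78.4 and 85.0 for *Dyrk1a*, 73.7 and 75.7 for *Dyrk3* and 57.6 and 67.4 for *Dyrk2*. Within the Clk family *Clk1* was 2.79-fold above *Clk2* in the table of shRNA 1 and 2.86-fold in that of shRNA 2, whereas the highest and lowest Dyrk genes were 1.48-fold and 1.45-fold apart. The median of the 9 kinases was 138 per kb in the table of shRNA 1, against 61.0 for the 12504 protein-coding genes in both tables, and 8 of the 9 were above that value, *Dyrk2* being at percentile 48.4. In the table of shRNA 2 all 9 were above the median gene, with *Dyrk2* at percentile 51.2.

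This scale depends on the transcript taken as the length. Over 4 definitions the level of *Clk1* varied 4.53-fold, that of *Srpk1* 3.93-fold and that of *Clk4* 3.80-fold. GENCODE M1 gives 13 transcripts of *Clk1*, of which 5 are retained-intron transcripts and 2 targets of nonsense-mediated decay, and 14 of *Clk4*, of which 7 and 3 are of these kinds. Both genes are known for controlling their own product through unspliced introns. *Clk2* has 4 retained-intron transcripts among 11 and *Srpk1* 4 among 7, whereas *Clk3*, *Dyrk2* and *Dyrk3* have a single transcript each. Divided by all merged exons, retained introns included, *Clk1* came to 99.7 per kb (8.14 kb of exons) and *Clk4* to 76.6, and *Clk3* was then the highest kinase with 189. *Clk2* came to 56.2, below *Dyrk1b* with 80.0. *Srpk1* came to 88.3 per kb with merged exons and to 347 with the median coding transcript, where it was above *Clk4* (291) and *Clk3* (189). The longest coding transcript of *Clk1* (2.10 kb) encodes a shortened protein, and with the transcript of the longest coding sequence (1.796 kb) its level was 452 per kb. The share of reads from each transcript was not measured, so the order *Clk1*, *Clk4*, *Clk3* holds for the coding transcripts and not for merged exons. Likewise *Dyrk1a*, whose longest coding transcript has 5.76 kb, was highest of its family with the median coding transcript (121 per kb) and lowest with merged exons (54.7 per kb).

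**Figure D2:**
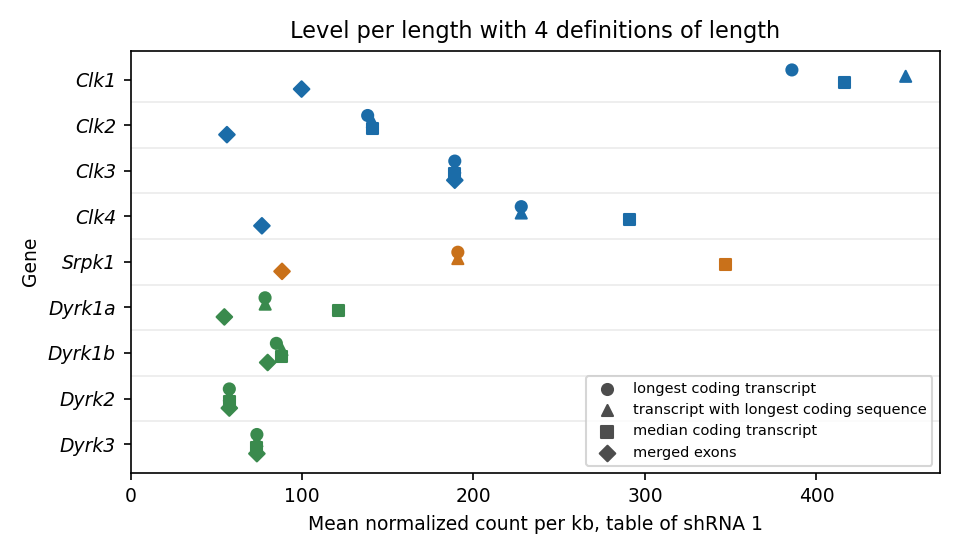
Mean normalized count per kb of each kinase in the table of shRNA 1, with a marker for each of 4 definitions of the gene's length and colours for the Clk, Srpk and Dyrk families. The markers of *Clk1* run from 99.7 to 452 per kb, while *Clk3*, *Dyrk2* and *Dyrk3*, with 1 annotated transcript each, have a single value.

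Some exons are shared with other genes on the opposite strand. *Clk3* (chromosome 9, 57598518 to 57613667) overlaps exons of *Edc3* over 582 of its 2494 exon bases, and *Dyrk2* (chromosome 10, 118296405 to 118305959) those of *4932442E05Rik* over 328 of 2137. The libraries were strand-specific by the study's methods, but the strand setting of the counting is not given in the sources used here, so the part of these neighbours in both means was not tested. Of the stretches of 50 bases in the *Srpk1* transcript, 1.13% also occur in coding transcripts of other genes. For *Clk1*, *Clk2*, *Clk4*, *Dyrk1a*, *Dyrk1b* and *Dyrk3* no such stretch was shared with a coding transcript of another gene (0%), the close relatives included.

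Both tables contain the control libraries, so a difference between the pooled means of a gene comes from the hairpin libraries and from the scaling of each table. The means of the table of shRNA 2 were higher by a median log2 value of 0.07 over the 11451 genes that had a mean of 10 or more in each table, and this shift was removed. After it, *Dyrk2* and *Dyrk1b* were higher in the table of shRNA 2, by log2 values of 0.15 and 0.13. With equal controls and 3 libraries in each group, this corresponds to a mean of the shRNA 2 libraries that was 27.6 normalized counts above that of the shRNA 1 libraries for *Dyrk2* (21.2% of its pooled mean) and 40.4 for *Dyrk1b* (17.9%). The value for *Dyrk2* stood at percentile 88.5, and that for *Dyrk1b* at 84.8, of the 6333 genes with a mean of 100 to 1000 in both tables, whose 5th and 95th percentiles were -0.25 and 0.22. Both values lay inside this range.

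On the log2 scale the other 7 kinases differed less. The log2 value was 0.04 for *Dyrk1a*, 0.04 for *Srpk1* and 0.02 for *Clk1*, and -0.0062 for *Clk3*, -0.012 for *Clk2*, -0.03 for *Dyrk3* and -0.03 for *Clk4*. In normalized counts, which weigh high genes more, the mean of the shRNA 2 libraries came out 42.0 higher for *Srpk1*, above the 40.4 of *Dyrk1b*, 27.6 higher for *Dyrk1a* and 26.0 higher for *Clk1*. For *Clk4* the difference was -19.8, or -4.51% of its pooled mean. These differences in counts were computed only with the median shift removed, and they depend on that scaling. Without scaling the log2 value of *Clk4* was 0.040, above 0. The log2 values of the 4 Clk genes lay between -0.03 and 0.02. Of the 9 kinases 5 were above 0, beside 48.4% of the genes of similar count, and the sign of *Clk2* and *Clk3* turned when the tables were scaled by their summed means. Without values per library it was not tested whether any of these differences exceeds the replicate error, and how the kinases compare with the control cells is not analysed here.

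**Figure D3:**
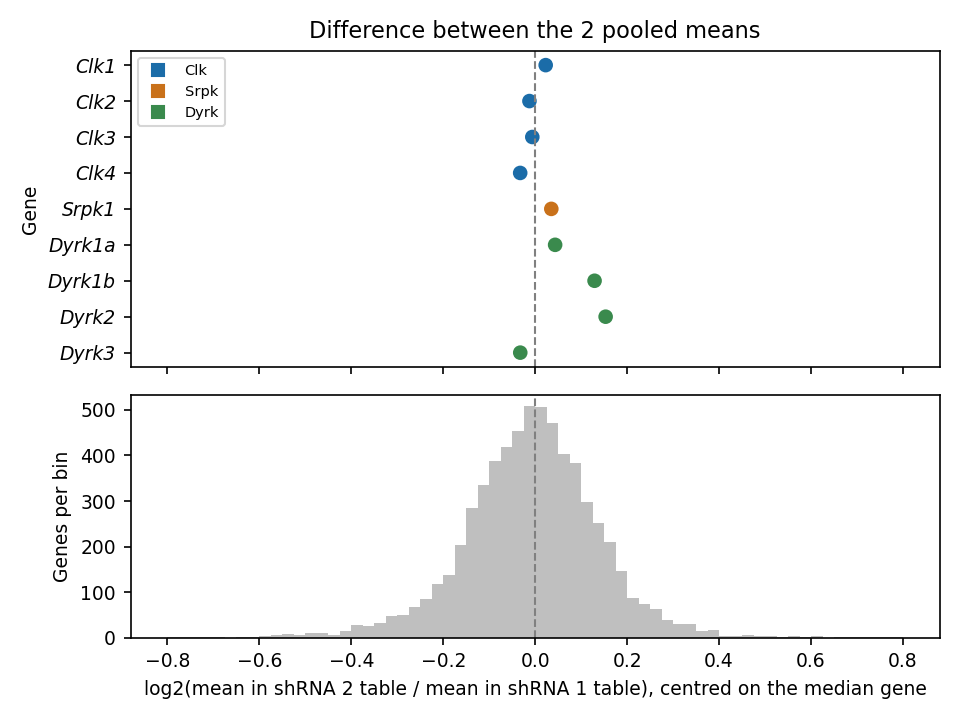
Upper panel, log2 ratio of the mean in the table of shRNA 2 to that in the table of shRNA 1, less the median over genes, for each kinase. Lower panel, the number of genes per bin of the same ratio, for genes with a mean of 100 to 1000 in both tables, of which 6 lie beyond the axis. *Dyrk1b* and *Dyrk2* lie on the right shoulder of the distribution and the other kinases near its centre.

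The substrates of these kinases and the other genes of the pathway were compared per length in the same way, as lists chosen with earlier results of these data known. The only length used was that of the longest coding transcript. How the places beside the kinases depend on the length was not tested. Of 13 SR protein genes 12 were present in both tables, with a median of 206 counts per kb in the table of shRNA 1, and all 12 were above the median protein-coding gene. *Srsf5* was the highest of them with 675 per kb and *Srsf4* the lowest with 71.3. The 4 Clk genes (138 to 386 per kb) and *Srpk1* lay within this range, as did *Dyrk1a*, *Dyrk1b* and *Dyrk3*, while *Dyrk2* was below it.

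All 14 scaffold and SR-related genes of speckles were present, with a median of 208 per kb, from 57.1 for *Pnn* to 399 for *Srrm2*. *Srrm2* had mean normalized counts of 3428 and 3759, which pool control and hairpin libraries and so do not measure the knockdown. *Son*, the other scaffold of speckles, had 377 per kb, close to the 386 of *Clk1*.

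Of 22 other regulators of SR protein phosphorylation 20 were present, with a median of 193 per kb. *Hsp90ab1*, a chaperone that holds SRPK in the cytoplasm, was highest with 3806 per kb, and *Dyrk4*, the remaining member of the DYRK family, was lowest with 2.34, at mean normalized counts of 5.38 and 11.5. The muscle-enriched *Srpk3* and *Cdk12* are not analysed here. *Tnpo3*, the importin of phosphorylated SR proteins, had 317 per kb and *Prpf4b*, a kinase of the spliceosome, 139. The catalytic subunits of protein phosphatase 1, which remove the phosphates, had 1569 (*Ppp1ca*), 276 (*Ppp1cb*) and 302 (*Ppp1cc*) per kb. By the longest coding transcript, *Ppp1ca* alone of these 3 genes was above *Clk1*.

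The difference between the pooled means had a wider range among these 20 regulators than among the 9 kinases, and a range widens with the number of genes. It ran from -0.36 for *Ppp1r8*, a nuclear inhibitor of protein phosphatase 1, to 1.02 for *Dyrk4*, whose counts were low. Next in size were *Akt1*, a kinase upstream of SRPK, with -0.33, and its relative *Akt2* with 0.28, on opposite sides of the median gene. The median of the 20 regulators was 0.0029, and 12 of the 20 were above 0. Of the 12 SR protein genes 2 were above 0 (*Srsf3* with 0.12 and *Srsf4* with 0.02), beside 5725 of the 11451 genes with a mean of 10 or more in each table, and their median was -0.03, against 0.02 for the 9 kinases. This count rested on the scaling, since 5 of the 12 were above 0 with the tables scaled by their summed means and 9 without scaling. None of these differences was tested.

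**Figure D4:**
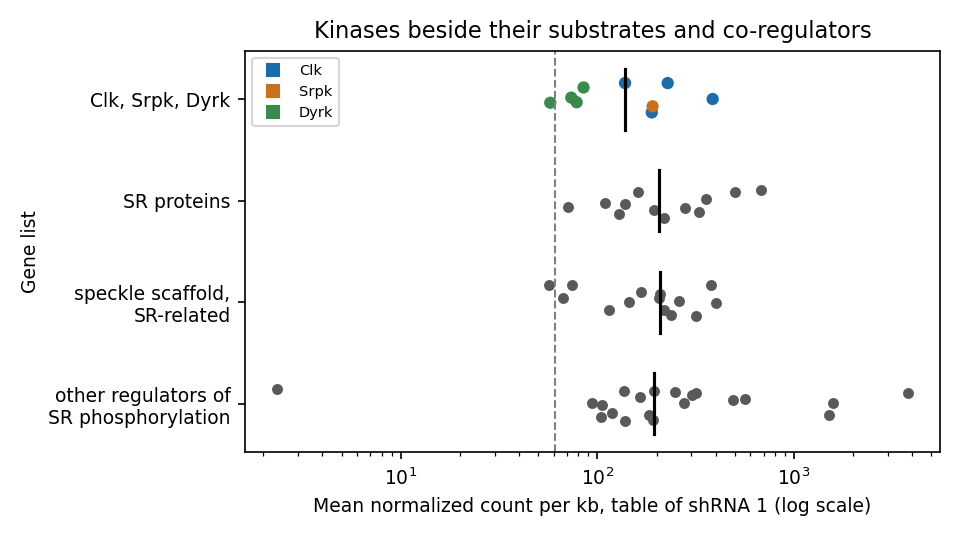
Mean normalized count per kb of the longest coding transcript (log scale, table of shRNA 1) for each gene in 4 lists. A short black line marks the median of each list and a dashed line the median protein-coding gene. The kinases span 57.6 to 386 per kb, and *Dyrk2* is the only one of them to the left of every SR protein gene.

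The label of a hepatocyte line was compared with markers. *Alb* (mean normalized counts of 2151 and 1814), *Ttr* (2497 and 2640), *Hnf4a* (1498 and 1624) and *Krt18* (9848 and 8953) were high, while *Apoa1* was low with 39.4 and 38.9. Of 4 cholangiocyte markers 3 were present in both tables and also high, *Krt19* with 2851 and 2753. Of 5 leukocyte markers 3 were present, with at most 26.2 and 29.8, and of 4 markers of stellate cells and fibroblasts 2, with at most 8.03 and 5.67. *Epcam*, the other 4 markers of these types and the 4 endothelial markers are not analysed here. The part of the cholangiocyte markers in the levels of the kinases was not tested.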

How the data were processed

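Libraries were assigned to groups by their titles. The labels of part of the control libraries also name further hairpins, and for these libraries the titles were followed. What this means for the pooled means was not tested. Per the labels and the study's methods, trimmed reads were aligned by the authors to the mm9 assembly (TopHat2), pairs with a unique position were retained, HTSeq gave the counts for GENCODE M1, and DESeq2 (version 1.8.2, default settings) normalized them. In each of the 2 deposited tables the authors give, per gene, a mean normalized count, a non-negative signal made from counts divided by size factors and averaged over the 6 libraries of a comparison. This is the value used. The remaining columns hold the authors' own comparison with the control (fold change, its standard error, test statistic and p-values) and were not used, so no test was run and every value is a description. The tables contain 13424 and 13478 genes, all matched to GENCODE M1 on NCBIM37, the assembly of mm9, and their means sum to 6144608 and 6393456. The depth of single libraries is unknown, and 0 columns of values per sample were left unmapped.

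The members and gene lists were chosen with earlier results of these data known. Genes named are the members, the highest and lowest gene per kb of each list, and the markers. Part of the regulators of SR protein phosphorylation are also named, among them those with the largest differences. *Srrm2* is named as the target, and *Son*, *Srsf3* and the quoted markers were chosen after their values were seen. *Trf* matched more than 1 gene identifier and was left out, and *Adgre1* was matched by an older symbol. Motifs were searched in the longest coding sequence that starts with ATG, and coding sequences were aligned globally. The centring of the difference was tested on simulated data. Alternatives were other lengths, scalings, minimum counts and a pseudocount. Python 3.11.15, numpy 2.4.6, pandas 2.3.3, Biopython 1.88 and matplotlib 3.10.9 were used.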

Additional observations from a re-analysis of the deposited data

How the results depend on the processing

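No paired analysis was possible because the columns used carry no value per library, and for the same reason no replicate was left out. A value was taken as moved past 1.5-fold, 0.1 in log2 or 10 percentile points. Dividing by merged exons lowered the ratio of the highest to the lowest kinase per kb from 6.70 to 3.46, and 3 of 9 genes kept their place within the family, *Srpk1* being the only gene of its family here. Merged exons add annotated introns and alternative exons to the length, and their parts were not separated. With the median coding transcript 7 of 9 kept it. The length of the transcript with the longest coding sequence, an alternative chosen after seeing the data, and the table of shRNA 2 changed no place. The table of shRNA 2 shares the control libraries with that of shRNA 1, so its agreement is partly built in. Without scaling of the tables all 9 kinases, and not 5, were higher in the table of shRNA 2, with log2 values of 0.060 for *Clk2*, 0.066 for *Clk3*, 0.040 for *Clk4* and 0.040 for *Dyrk3* that were below 0 otherwise. The scalings of the SR protein genes were also chosen after seeing the data. Scaling by summed means gave 0.0027 for *Clk2* and 0.0089 for *Clk3*. The other 39 of 45 alternative values of single kinases kept their sign and moved by less than 0.1, and none of the 18 alternative percentiles moved by 10 points. *Dyrk3* still fell below the median gene among protein-coding genes and among genes with a mean of 10 or more. Unknown depth and replicate spread limit every comparison.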
